A study of Mus musculus with 22 samples.

Results

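The cytosolic ribosomal protein genes were taken as all genes of the arrays whose symbol is Rpl or Rps followed by a digit, or Rplp0, Rplp1, Rplp2 or Rpsa, without the S6 kinases and without pseudogenes. Only probe sets that carry exactly 1 gene symbol were used, and each gene was read by its brightest probe set over all 22 arrays. The rule found 49 genes among 18194 genes with such a probe set: 21 of the small ribosomal subunit, 22 of the large subunit and 6 paralogues or like-named genes. After a filter on dim genes, 46 of the 49 remained among 10772 genes tested. Rps16, Rpl3l and Rpl39l fell below the filter. The probe set of Rps16 was at the lowest value used on 21 of 22 arrays, so its level was not measured. Another 110 probe sets that name a ribosomal protein together with other genes were left out, and Rplp1, Rpl5, Rpl3 and Rpl10 were therefore not among the 49.

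The arrays measured total RNA from cultured cerebellar granule cells of mouse pups at postnatal day 7 (P7), in 3 separate experiments of 2 groups each. Chd7_mutant cells (n = 4) lack the chromatin remodeller Chd7 in the granule lineage, where, by the study's methods, the Atoh1 promoter drives Cre in mice with floxed Chd7, and Chd7_control cells (n = 4) are labelled wild type. ICRF193 cells (n = 4) received the topoisomerase II inhibitor ICRF-193 at 10 µM for 12 h and DMSO cells (n = 4) the vehicle, and Smo2 cells (n = 3) were cultured with an agent that the labels name only Smo2, against Smo2_control cells (n = 3) without it. The strain is labelled C56Bl6/J for all 6 groups, the labels call the replicates biological, and neither the pups behind each array nor their sex is given, so the p-values measure the spread between these arrays.

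Ribosomal proteins are the protein part of the machine that translates mRNA. The small subunit reads the mRNA, the large subunit joins amino acids, and equal amounts of most of these proteins are needed, so their genes are usually expressed together. Growing and dividing cells make many ribosomes, and granule neuron progenitors, which divide in response to Hedgehog signalling in the first weeks after birth in mice, stop dividing as they become neurons. Most ribosomal protein mRNAs in vertebrates begin with a C and a run of pyrimidines, the 5′ terminal oligopyrimidine (TOP) tract, through which mTOR signalling controls their translation. A change in mRNA level, as measured here, is a separate quantity from that control.

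Sequences at the transcription start were available for 44 of the 49 genes (RefSeq, build GRCm38.p6), and for 41 of the 46 tested. A start with C and at least 4 further pyrimidines was annotated for 8 of 41 tested genes (19.5%), against 276 of 8785 among all genes tested that have a window (3.1%). A tract was also sought that begins within 10 bases on either side of the annotated start, counted only where no pyrimidine precedes its C. The shares were then 43.9% for the ribosomal protein genes and 29.5% for all genes. Under this added rule Rpl38 and Rplp2, counted above, dropped out, so the wider share does not contain the first. The 8 starts are shown because they carry the feature that defines this class of mRNA. Each window holds 15 bases before and 15 bases from the start on, 5′ to 3′ on the gene's strand, with the tract in capitals. They lie at chr9:120571502-120571531 on the plus strand (Rpl14), chr2:39005117-39005146 on the minus strand (Rpl35), chr11:114668565-114668594 plus (Rpl38), chr7:141447636-141447665 plus (Rplp2), chr17:27635230-27635259 minus (Rps10), chr17:33955651-33955680 minus (Rps18), chr3:90213634-90213663 minus (Rps27) and chr4:86857353-86857382 minus (Rps6).
Rpl14: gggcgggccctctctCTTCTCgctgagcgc
Rpl35: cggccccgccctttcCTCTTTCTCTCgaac
Rpl38: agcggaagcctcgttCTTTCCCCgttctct
Rplp2: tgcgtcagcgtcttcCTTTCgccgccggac
Rps10: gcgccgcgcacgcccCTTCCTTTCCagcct
Rps18: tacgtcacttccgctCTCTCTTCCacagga
Rps27: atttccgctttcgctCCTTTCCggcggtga
Rps6: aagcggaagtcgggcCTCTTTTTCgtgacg

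The promoter windows (250 bases before the start and 50 after) were also searched for 2 motifs on both strands. CCGGAAG, a motif of ETS-family factors such as GABP, was present in 20 of 41 ribosomal protein genes (48.8%), against 20.9% of all genes tested. AGATGGCG, a motif of YY1, was present in 3 of 41 (7.3%), against 4.8%. The windows with CCGGAAG are shown for Rps6, Rps18, Rpsa and Rps27l, which were called higher in both Chd7_mutant and Smo2 cells (below). Rps2 and Rps26 were also called in both and hold the motif, but their windows are not shown. They lie at chr4:86857441-86857470 minus (Rps6), chr17:33955723-33955752 minus (Rps18, which holds a further copy), chr9:120127566-120127595 plus (Rpsa) and chr9:66946083-66946112 plus (Rps27l), with the motif, or its reverse complement in Rpsa, in capitals.
Rps6: gttaatctacgcCCGGAAGtaacgcccctc
Rps18: gagaagcaatttCCGGAAGtggacctccgg
Rpsa: tcgccccagctaCTTCCGGcctggggtctg
Rps27l: gccgcctctatcCCGGAAGttgctgagggg
These shares describe sequence only, and binding was not measured. Of the 10 members called in Chd7_mutant cells, 6 held CCGGAAG, and of the 33 with a window among those called with Smo2, 17 did (51.5%). In genomic length the 46 genes ran from 982 to 9647 bp with a median of 3609.5 bp, whereas the median of all genes tested was 25043 bp and 23.6% of them were shorter than 10000 bp.

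**Figure D1:**
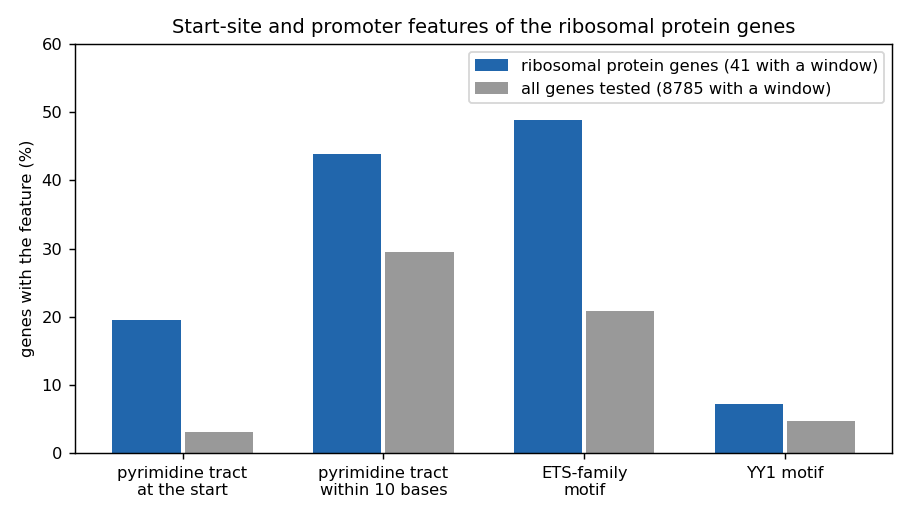
Share of genes (vertical axis, percent) with each start-site or promoter feature, for the 41 tested ribosomal protein genes with a window (blue) and the 8785 of all genes tested (grey). The pyrimidine tract at the annotated start (19.5% against 3.1%) and the ETS-family motif (48.8% against 20.9%) differ most in share, and the YY1 motif (7.3% against 4.8%) least.

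On the arrays themselves, values are log2 of the scaled signal after quantile normalization, so a difference of 1 is a doubling of signal, and levels of different probe sets are not compared. The labels held for the targeted gene in 1 of its 2 probe sets, whose groups did not overlap. That Chd7 probe set read 8.99 to 9.98 in Chd7_mutant arrays, against 11.27 to 11.72 in Chd7_control arrays, and the other read 11.37 to 11.86, against 11.74 to 12.01, with overlapping groups. In the Chd7 and ICRF-193 experiments replicates 1 and 2 deviated together, as did replicates 3 and 4, and these pairs are called sets here. The mean of 3 Y-linked genes was 4.00 to 6.95 in Chd7_mutant arrays and 8.38 to 9.03 in Chd7_control arrays, and the groups did not overlap.

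Averaged over the 46 genes, the groups of all 3 experiments did not overlap. The mean log2 signal was 12.99, 13.00, 12.99 and 13.03 in the 4 Chd7_mutant arrays, against 12.79, 12.88, 12.78 and 12.79 in the 4 Chd7_control arrays. It was 13.03, 12.99, 13.03 and 13.03 in ICRF193 arrays, against 12.86, 12.95, 12.89 and 12.94 in DMSO arrays. It was 13.29, 13.25 and 13.26 in Smo2 arrays, against 12.84, 12.88 and 12.82 in Smo2_control arrays. The spread within a group (SD 0.02 to 0.05) was below the distance between the groups of each pair, and Smo2 cells stood highest of all 6 groups.

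**Figure D2:**
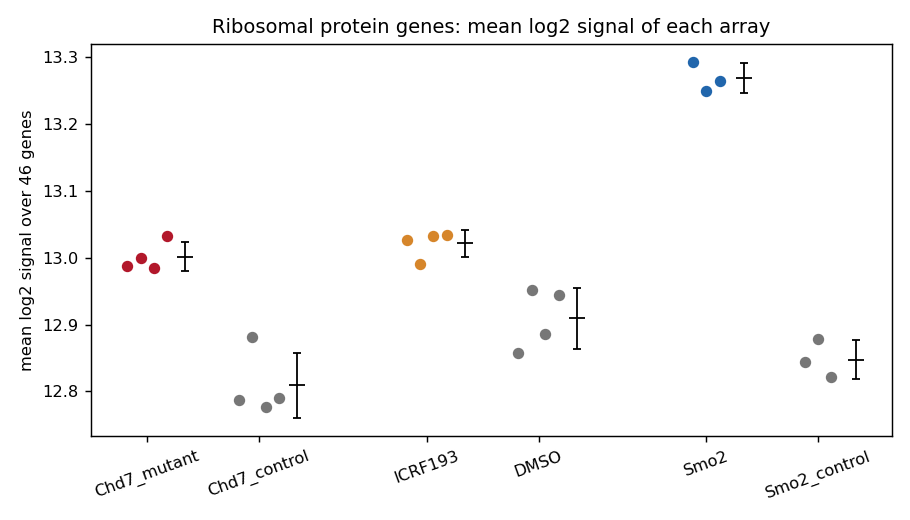
Mean log2 signal over the 46 tested ribosomal protein genes (vertical axis) on each of the 22 arrays, by group, with the group mean and SD as a black bar (n = 4, and n = 3 for Smo2 and Smo2_control). Smo2 arrays lie at 13.25 to 13.29 and their controls at 12.82 to 12.88, and the Chd7_mutant and ICRF193 arrays lie closer to their own controls.

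In Chd7_mutant cells 10 of the 46 genes were higher at an adjusted p under 0.05 (limma, Benjamini-Hochberg over all genes tested) and 0 were lower, where 5.07% of all genes were called higher and 3.82% lower. All 46 changes were above 0, with a median of 0.16 on the log2 scale, against a median of 0.005 over all genes. The 4 Chd7_mutant arrays lay above all 4 Chd7_control arrays in 31 of the 46 genes, where 10.4% of all genes did so. At an unadjusted p under 0.05, 28 were higher and 0 lower, where 13.9% of all genes were higher. The 46 genes were read on the same 8 arrays and are not independent of each other.

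The count of called genes in Chd7_mutant cells moved with the processing, while the median change stayed between 0.12 and 0.26 under the alternatives tried. It was 2 with median centring (3.63% of all genes called higher), 28 with centring on other bright genes (7.48%), 18 with a term for the set (12.6%) and 0, with 0% of all genes, when the 2 sets of each group were averaged and taken as the samples (limma). With these set means 8 were higher at an unadjusted p under 0.05, a count with no share of all genes beside it. With replicate number as a block the count called was 7, where 7.95% of all genes were called higher. Leaving out any 1 of Chd7_mutant replicates 1 and 4 or Chd7_control replicates 1, 3 and 4 left 6 called, where 2.89% to 3.67% of all genes were called higher. Within the sets, the median change was 0.12 for replicates 1 and 2 (1 called, 5.92% of all genes) and 0.19 for replicates 3 and 4 (8 called, 8.67% of all genes).

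Markers of other tissue moved with the genotype in the same arrays. All 3 measured of 8 skeletal muscle markers were called higher, with an array mean of 8.22 to 9.27 in Chd7_mutant cells, against 5.96 to 6.78 in Chd7_control cells. All 6 fibroblast and pericyte markers had changes above 0 and 2 were called, at 9.25 to 10.35 against 8.48 to 9.38. The 7 astrocyte and Bergmann glia markers (1 called) ran from 9.39 to 11.02, against 8.79 to 9.84, and the 6 measured oligodendrocyte lineage markers (1 called) from 10.22 to 10.83, against 8.63 to 9.94. Microglia markers had changes below 0 in 5 of 5 (median -0.92, 0 called, 2 lower at an unadjusted p under 0.05), as did interneuron markers in 3 of 3 (0 called). Granule lineage markers had a median change of -0.15 (2 of 9 called lower), and 4 of 24 proliferation genes were called higher with a median change of 0.47. In bulk RNA a shift in cell types and a change per cell cannot be told apart, and the part of these markers and of the Y-linked genes in the ribosomal protein values was not tested.

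With ICRF-193 the ribosomal protein genes had a median change of 0.06, which was 0.11 with the deposited scaling only and 0.16 with centring on other bright genes. None of the 46 was called higher or lower by limma, where 3.14% of all genes were called higher and 3.46% lower. At an unadjusted p under 0.05, 6 of the 46 were higher and 0 lower, where 10.2% of all genes were higher. Of the 46 changes 41 were above 0, the median over all genes was 0.008, and 8 genes had all ICRF193 arrays above all DMSO arrays, where 7.63% of all genes did. The count was also 0 with replicate number as a block (4.28% of all genes called higher). Other estimates of the spread called a few members higher: 6 in 1 fit over all 22 arrays (6.06% of all genes), 5 with limma's trended and robust fit (4.18%) and 3 with the methods' t-test after Benjamini-Hochberg (2.31%).

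With Smo2, 37 of the 46 genes were higher and 0 were lower. The background was broad, since 29.7% of all genes were called higher and 39.0% lower, and under median centring these shares were 37.6% and 29.9%. The members' median change was 0.38, against -0.09 over all genes and -0.21 over the 945 other genes with a mean log2 signal of at least 12, where most ribosomal protein genes lie. Of the 46 changes 43 were above 0, and 40 genes had all Smo2 arrays above all Smo2_control arrays, where 31.9% of all genes did. The count was 43 under median centring and 42 with centring on other bright genes, and 33 to 36 without any 1 array. At a change of at least 1.5-fold 11 remained called, so on the brightest probe sets most of the changes were below that size. Other probe sets of some genes changed more (below).

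Proliferation genes moved with Smo2 on a far larger scale. All 24 measured were called higher with a median change of 3.15, and their array mean was 12.41 to 12.44 in Smo2 cells, against 9.26 to 9.32 in Smo2_control cells. All 6 measured Hedgehog target genes were higher too, with a median change of 1.66. Granule lineage markers were lower in 8 of 9 (median change -0.66), while Atoh1 of that list was called higher by 1.74. Astrocyte, microglia and interneuron markers were lower in 6 of 7, 5 of 5 and 3 of 3, and the astrocyte marker Gja1 was called higher by 1.555. Oligodendrocyte lineage markers were split, with 3 higher and 3 lower of 6, and 1 of 3 skeletal muscle markers was higher. The difference between 3′ and 5′ probe sets, a measure of RNA quality, was -0.80 to -0.69 for Gapdh in Smo2 arrays, against -0.91 to -0.88 in Smo2_control arrays, and 0.22 to 0.23 for actin, against 0.15 to 0.21, with no overlap in either. The part of these shifts in the ribosomal protein values was not tested. Of the 10 genes called in Chd7_mutant cells all 10 were also called with Smo2, where they made up 27% of the 37. Of all 46 genes 80.4% were called higher with Smo2, so this overlap says little about shared members.

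**Figure D3:**
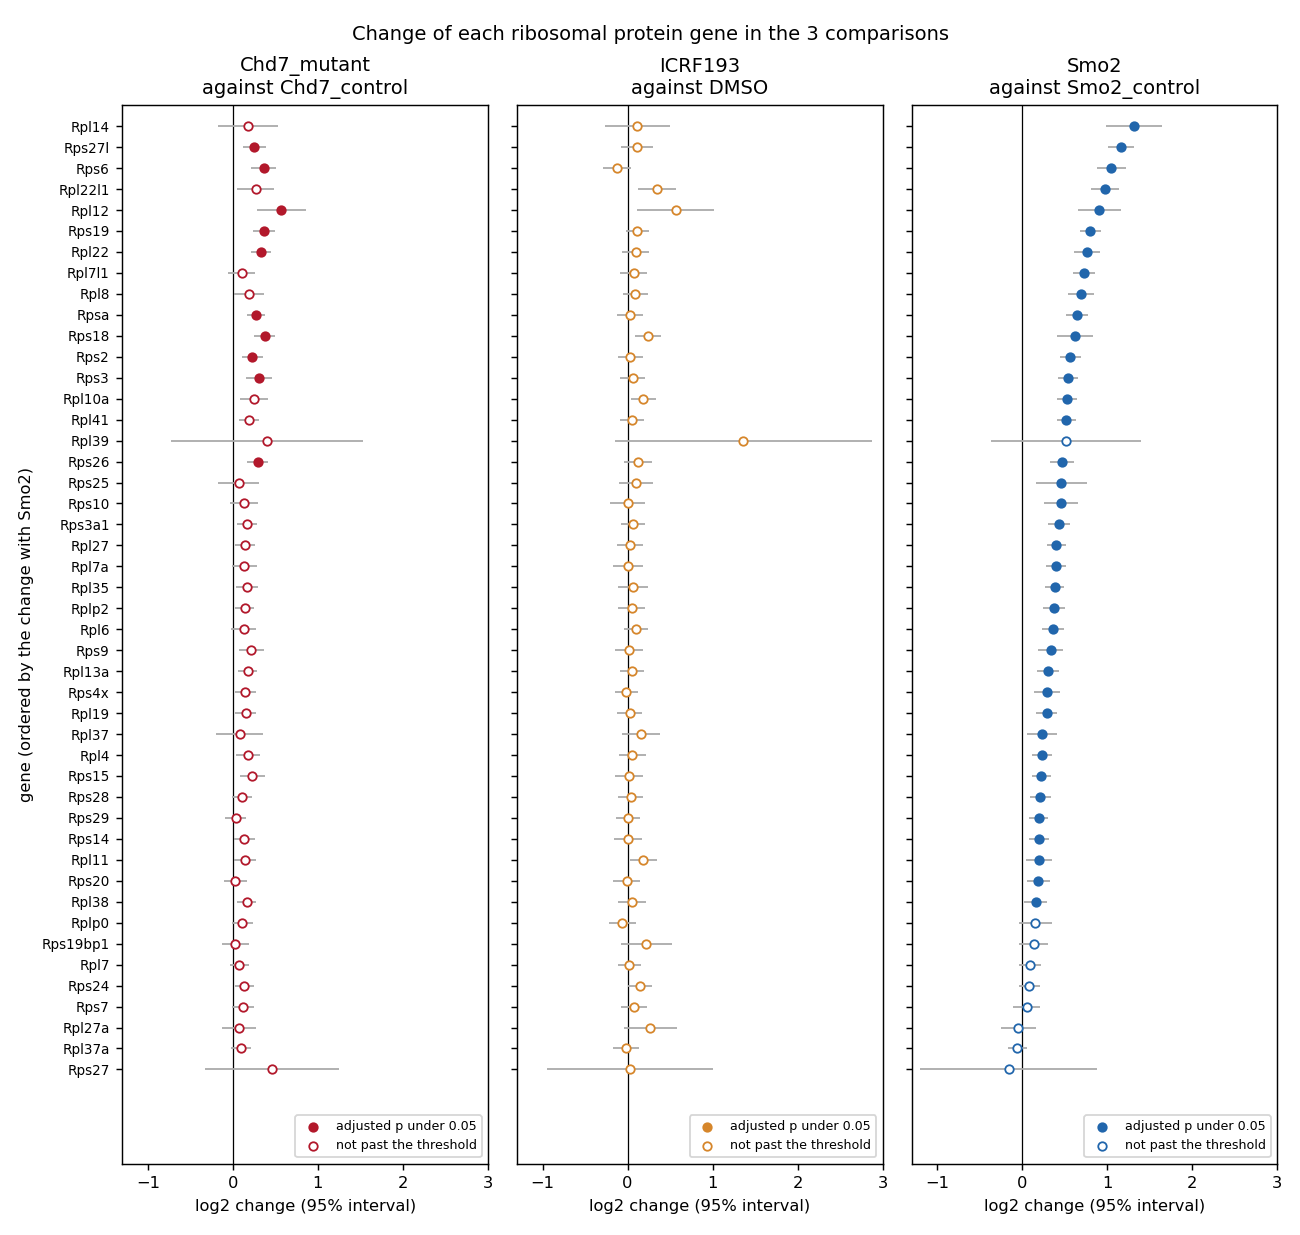
Log2 change of each of the 46 ribosomal protein genes (rows, ordered by the change with Smo2) in the 3 comparisons, with 95% intervals as grey lines and filled points for an adjusted p under 0.05. Filled points number 10 for Chd7_mutant, 0 for ICRF193 and 37 for Smo2, and only 3 points with Smo2 and 5 with ICRF193 lie left of 0.

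Among small subunit proteins, 7 of 20 measured were called higher in Chd7_mutant cells (median change 0.19), 0 with ICRF-193 (0.03) and 17 with Smo2 (0.39). Of all genes tested, 5.07%, 3.14% and 29.7% were called higher in these comparisons. Rps18, a protein of the head of the small subunit, read 13.72, 13.72, 13.69 and 13.76 in Chd7_mutant arrays, against 13.33, 13.44, 13.32 and 13.30 in Chd7_control arrays. The groups did not overlap, and the change was 0.37 ± 0.06 (SE, adjusted p = 0.00575, limma). With ICRF-193 it read 13.61, 13.65, 13.74 and 13.69, against 13.41, 13.39, 13.52 and 13.39 with DMSO, a change of 0.24 (adjusted p = 0.0737) with groups that did not overlap either. With Smo2 it read 14.03, 13.93 and 13.76, against 13.38, 13.23 and 13.24, a change of 0.62. Rps18 thus stood higher on every array of each treated or mutant group, and passed the threshold with the mutant and Smo2.

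Rps19, whose human gene is the one most often mutated in Diamond-Blackfan anaemia, is needed to finish the RNA of the small subunit. It read 13.34, 13.36, 13.29 and 13.28 in Chd7_mutant arrays, against 12.98, 13.04, 12.88 and 12.91 in Chd7_control arrays, a change of 0.37 ± 0.06 (adjusted p = 0.00768). In Smo2 arrays it read 13.77, 13.73 and 13.68, against 12.94, 12.92 and 12.93, a change of 0.80 (adjusted p = 3.3e-05). The 3 Smo2 arrays were far above controls that differed by only 0.02. With ICRF-193 it averaged 13.38 ± 0.04 against 13.27 ± 0.01 with DMSO (SD, n = 4 each), a change of 0.11 that missed the threshold (adjusted p = 0.353).

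Rps6, the ribosomal protein phosphorylated by S6 kinase downstream of mTOR, passed the test in Chd7_mutant and Smo2 cells. It read 9.74, 9.89, 9.82 and 9.69 in Chd7_mutant arrays, against 9.36, 9.39, 9.48 and 9.45 in Chd7_control arrays, a change of 0.36 (adjusted p = 0.0125). It read 10.63, 10.82 and 10.68 with Smo2, against 9.63, 9.62 and 9.74, a change of 1.05 or 2.07-fold (adjusted p = 4.3e-05). With ICRF-193 it read 9.51, 9.49, 9.69 and 9.65, against 9.72, 9.67, 9.73 and 9.71 with DMSO. That change of -0.12 was the lowest of the 46 and did not pass the test (adjusted p = 0.424).

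Rpsa, a small subunit protein also known as the laminin receptor precursor, was higher by 0.27 in Chd7_mutant cells (14.00 ± 0.03 against 13.72 ± 0.02, SD, n = 4 each, adjusted p = 0.0129) and by 0.65 with Smo2 (14.17 ± 0.02 against 13.53 ± 0.06, n = 3 each). With ICRF-193 its change was 0.03. Rps3, at the entry of the mRNA channel, and Rps26, at its exit, were higher by 0.31 and 0.29 in Chd7_mutant cells and by 0.54 and 0.47 with Smo2. Rps2, also at the entry, was higher by 0.23 and 0.57. The other small subunit genes called with Smo2 had changes of 0.19 to 0.46. Rps3 (adjusted p = 0.0506) and Rps27l (0.065) lost their call in Chd7_mutant cells with replicate number as a block. Rps3 also lost it without any 1 array other than Chd7_mutant replicate 2 or Chd7_control replicate 2 (adjusted p up to 0.0713). With the mean of its probe sets in place of the brightest, the change of Rpsa in Chd7_mutant cells was -0.08.

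Of the 22 large subunit genes measured, 2 were called higher in Chd7_mutant cells (median change 0.155), 0 with ICRF-193 (0.06) and 17 with Smo2 (0.37). Of all genes, 5.07%, 3.14% and 29.7% were called higher, and the 2 of 22 are 9.09%. At an unadjusted p under 0.05 (limma), 13 of the 22 large and 13 of 20 small subunit genes were higher in Chd7_mutant cells, where 13.9% of all genes were. Whether the subunits differ was not tested. Rpl12, which sits at the base of the stalk that recruits translation factors, had the largest called change in Chd7_mutant cells, on a dim probe set (mean 8.32 over all arrays). It read 8.74, 8.54, 8.30 and 8.67, against 8.11, 8.21, 7.84 and 7.80 in Chd7_control arrays, a change of 0.57 ± 0.13 (SE, adjusted p = 0.0302). The call was lost without any 1 array other than Chd7_mutant replicate 3 or Chd7_control replicate 2 (adjusted p 0.0596 to 0.0792). In ICRF193 arrays it averaged 8.22 ± 0.24, against 7.65 ± 0.38 with DMSO (SD, n = 4 each), and these groups overlapped (change 0.57, adjusted p = 0.152). With Smo2 it read 9.44, 9.43 and 9.20, against 8.62, 8.38 and 8.36, a change of 0.90.

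Rpl14, a large subunit protein whose start is among the tracts above, had the largest change with Smo2, also on a dim probe set (mean 7.69 over all arrays). Of the 46 genes 36 had a mean of 12 or more, and the part of signal level in this ranking was not tested. Rpl14 read 8.79, 8.64 and 8.65, against 7.23, 7.68 and 7.23 in Smo2_control arrays, a change of 1.31 ± 0.13 (SE) or 2.48-fold (adjusted p = 0.000239). In the other experiments it did not pass the test, with changes of 0.17 in Chd7_mutant and 0.12 in ICRF193 cells and overlapping groups. Rpl8, part of the peptidyl transferase centre, was higher by 0.69 with Smo2, at 13.95 ± 0.07 against 13.26 ± 0.06 (SD, n = 3 each). Its change in Chd7_mutant cells, 0.19, missed the threshold (adjusted p = 0.171).

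The stalk proteins Rplp0 and Rplp2 moved less. Rplp2 was higher by 0.37 with Smo2 (14.69 ± 0.07 against 14.31 ± 0.01), while Rplp0 changed by 0.15 with an interval of -0.04 to 0.35 and overlapping groups. In Chd7_mutant cells Rplp0 changed by 0.11 and Rplp2 by 0.14, both short of the threshold, and with ICRF-193 by -0.06 and 0.05. Rpl11, which binds 5S RNA together with Rpl5 and can bind the p53 regulator Mdm2, was higher by 0.19 with Smo2 (adjusted p = 0.0323), a call that was lost without any 1 array other than Smo2_control replicate 3 (0.0554 to 0.0998) and in the paired fit (0.0548). Rpl13a, often used as a reference gene in PCR assays, was higher by 0.30 with Smo2, at 14.57 ± 0.07 against 14.26 ± 0.02. In Chd7_mutant cells it read 14.52, 14.51, 14.51 and 14.52, against 14.37, 14.34, 14.37 and 14.28, a change of 0.18 (adjusted p = 0.0637) whose groups did not overlap.

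Paralogues showed some of the largest changes. Rps27l, a paralogue of Rps27 and a p53 target in human cells, read 13.20, 13.25 and 13.14 with Smo2, against 12.03, 12.10 and 11.97, a change of 1.16 ± 0.06 (SE) or 2.24-fold (adjusted p = 1.7e-05). It read 12.61, 12.70, 12.54 and 12.55 in Chd7_mutant arrays, against 12.32, 12.30, 12.40 and 12.37, a change of 0.25 (adjusted p = 0.0355). That call was lost without any 1 of the 8 arrays (0.0567 to 0.0955), although the groups did not overlap. The brightest probe set of Rps27 itself was dim and variable (6.81 to 9.18 over the Chd7 and ICRF-193 experiments), so this pair could not be compared.

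Rpl22, a large subunit protein that in mice is needed for T cell development, and its paralogue Rpl22l1 were both higher with Smo2. Rpl22 read 14.20, 14.19 and 14.33, against 13.53, 13.43 and 13.48, a change of 0.76, and Rpl22l1 read 12.94, 12.99 and 12.85, against 11.92, 12.04 and 11.90, a change of 0.97. In Chd7_mutant cells Rpl22 was higher by 0.33 (13.71, 13.68, 13.70 and 13.76, against 13.34, 13.43, 13.40 and 13.38, adjusted p = 0.00761). Rpl22l1 changed by 0.27 there with overlapping groups (adjusted p = 0.123). With ICRF-193 Rpl22l1 read 12.41, 12.28, 12.48 and 12.65, against 11.96, 12.14, 12.14 and 12.19 with DMSO. These groups did not overlap, and the change of 0.34 missed the threshold (adjusted p = 0.0776), passed it with a term for the set (0.0237), and missed it with set means as samples (0.44).

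Rpl7l1, a paralogue of Rpl7, read 11.36, 11.39 and 11.40 with Smo2, against 10.72, 10.59 and 10.65, a change of 0.73, whereas Rpl7 changed by 0.09 with an interval of -0.04 to 0.22. Whether these changes differ within the pair was not tested. In Chd7_mutant cells they changed by 0.10 and 0.08 and passed no test. Rps19bp1, a protein that binds Rps19 and is included by its symbol, did not pass the test in any comparison (0.03, 0.22 and 0.13 for the mutant, ICRF-193 and Smo2). Rps4x, encoded on the X chromosome, was higher by 0.29 with Smo2, and changed by 0.15 in Chd7_mutant and -0.02 in ICRF193 cells. The exit tunnel protein Rpl39 was too variable to read, with an interval of -0.15 to 2.87 for its change of 1.36 with ICRF-193. The paralogues Rpl3l and Rpl39l were dim in all groups.

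**Figure D4:**
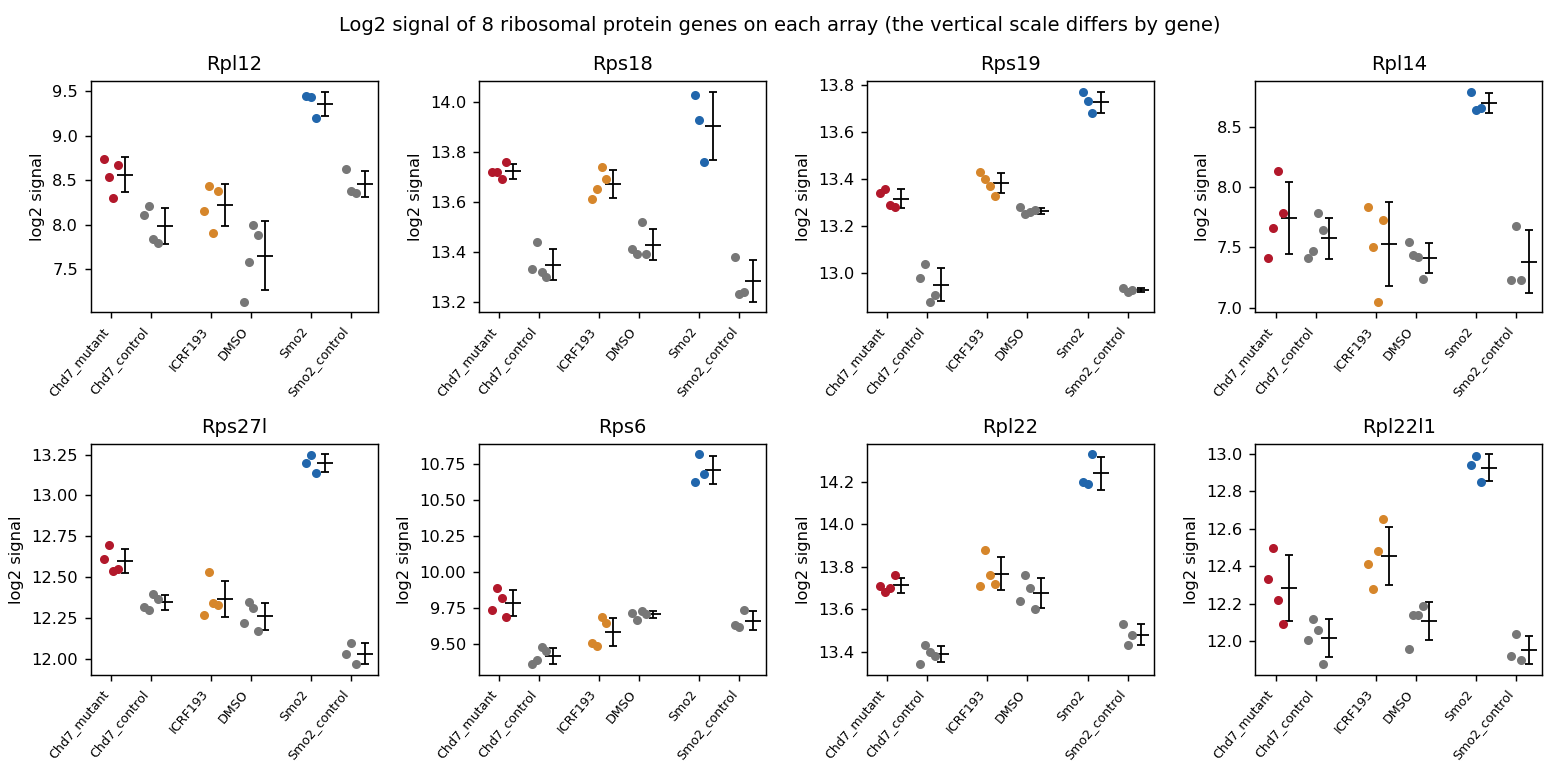
Log2 signal (vertical axis, a scale of its own in each panel) of 8 ribosomal protein genes on each of the 22 arrays by group, with group mean and SD in black (n = 4, and n = 3 for Smo2 and Smo2_control). Smo2 arrays lie above Smo2_control arrays in all 8 panels, and Chd7_mutant arrays lie above Chd7_control arrays without overlap in Rpl12, Rps18, Rps19, Rps27l, Rps6 and Rpl22.

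Of the 9 genes not called with Smo2, Rps24, Rpl7, Rps7, Rpl27a and Rpl37a had narrow intervals on their brightest probe sets. Rps24, whose human gene is also mutated in Diamond-Blackfan anaemia, changed by 0.08 (interval -0.04 to 0.21) and Rps7 by 0.06 (-0.10 to 0.21). For Rps24 the Smo2 arrays still lay above all Smo2_control arrays, on this and on its other probe sets above the filter. Another bright probe set read 13.92, 13.92 and 13.90 with Smo2, against 13.65, 13.70 and 13.65. Rpl37a changed by -0.06 (-0.17 to 0.06), with 14.05 in each of the 3 Smo2 arrays, against 14.10, 14.09 and 14.14 in Smo2_control arrays. It was the only gene of the 46 with all Smo2 arrays below all control arrays.

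The changes of the 3 experiments were set against each other in 1 fit over all 22 arrays, in which a difference between experiments cannot be told apart from other differences between them. The Chd7_mutant change exceeded the ICRF-193 change in 4 members, where 5.07% of all genes passed in that direction, and fell below it in 0. Rps6 differed by 0.48 ± 0.09 (SE, adjusted p = 0.00114), Rps19 by 0.25 (0.0153), Rpsa by 0.24 (0.025) and Rps3 by 0.24 (0.0423). Under median centring Rps6 alone of the 4 kept its call (adjusted p = 0.0194, against 0.477 to 0.629 for the other 3). The Smo2 change exceeded the Chd7_mutant change in 23 members (20.4% of all genes) and the ICRF-193 change in 32 (22.8%), and fell below in 0 in both. Among those that passed, Rpl14 (1.14), Rps27l (0.91) and Rpl22l1 (0.71) differed most from the mutant's change, and Rpl14 (1.20), Rps6 (1.17) and Rps27l (1.05) most from that with ICRF-193. Across the 46 genes the changes with the mutant and with Smo2 had a Pearson correlation of 0.47 and a Spearman correlation of 0.61, against 0.33 and 0.38 over all genes tested. These points share their arrays and are given as a description.

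The choice of probe set mattered for some members. Of the tested genes 32 were read by probe sets whose name carries a suffix such as _x_at, and 14 by plain _at probe sets. In Chd7_mutant cells 7 of the 32 and 3 of the 14 were called higher (5.07% of all genes), and with Smo2 28 and 9 (29.7%). The median changes with Smo2 were 0.37 and 0.43. Whether suffixed probe sets also read related transcripts was not tested. Of the 46 genes 20 had several usable probe sets above the filter, and among all 91 probe sets 69 were called higher and 1 lower with Smo2, 14 higher and 0 lower in Chd7_mutant cells, and 1 higher and 0 lower with ICRF-193. These counts come from a fit over all probe sets above the filter. The share called in that fit is not given, so the counts cannot be read against it. Probe sets of 1 gene had changes of both signs for 3 genes with Smo2, 2 in Chd7_mutant cells and 6 with ICRF-193. The 1 lower probe set belonged to Rpl22 (-0.41 with Smo2), whose other probe sets changed by 0.76 and 1.13. For Rps10, changes with Smo2 ran from 0.44 to 2.25, and for Rpl13a from 0.30 for the brightest to 0.92. Rps24, named here after its values were seen, had a dim probe set with larger changes than the 4 bright ones. It read 8.59, 8.61, 8.86 and 8.52 in ICRF193 arrays, against 7.96, 7.76, 7.96 and 7.57 in DMSO arrays, a change of 0.83 (adjusted p = 0.00558, limma over all probe sets). It changed by 0.36 in Chd7_mutant cells and by 1.09 with Smo2, while the 4 bright sets changed by at most 0.25 in any comparison.

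Other genes of ribosome production gave a frame for the ribosomal protein genes. Over all genes tested, 5.07% were called higher in Chd7_mutant cells, 3.14% with ICRF-193 and 29.7% with Smo2. In Chd7_mutant cells the shares of assembly genes (4.55%) and RNA polymerase I genes (5.88%) called higher were near that of all genes. Changes there were nevertheless above 0 in 40 of 44 assembly genes and 11 of 17 RNA polymerase I genes, against 5514 of 10772 genes tested. At an unadjusted p under 0.05 (limma), 14 of the 44 were higher and 0 lower, where 13.9% of all genes were higher. In 10 of the 44 the Chd7_mutant arrays lay above all Chd7_control arrays, where 10.4% of all genes did so. Of 44 measured genes of ribosome assembly, 44 were called higher with Smo2 with a median change of 0.87, above the 0.38 of the ribosomal proteins. The 2 lists lie at unlike signal levels, with Smo2 array means of 10.69 to 10.73 and 13.25 to 13.29. Across the members, mean signal and the change with Smo2 had a Pearson correlation of -0.33 and a Spearman correlation of -0.42. The part of signal level in the gap between the medians was not tested. Among the assembly genes Nhp2 and Dkc1, which modify ribosomal RNA, changed by 1.86 and 1.64, and Nop58, also of small nucleolar particles, by 1.73. In Chd7_mutant cells 2 of the 44 were called (Nhp2 0.53 and Nip7 0.31, median 0.13) and with ICRF-193 3 (Nop56 0.51, Ltv1 0.39 and Tsr1 0.37, median 0.12). RNA polymerase I genes were called higher in 13 of 17 with Smo2, in 1 with the mutant and in 0 with ICRF-193, with a change of 1.35 for Polr1b with Smo2.

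Translation factors and other genes with TOP mRNAs were called higher in 12 of 19 with Smo2 (median 0.26), 2 in Chd7_mutant cells (0.16) and 1 with ICRF-193 (0.07), and none was lower. They included the snoRNA host genes Snhg1 (1.43 with Smo2 and 0.35 with ICRF-193) and Gas5 (0.45 in Chd7_mutant cells). Other translation initiation factors were higher in 17 and lower in 2 of 23 with Smo2, among them Eif3b (0.82) and Eif3m (0.76), with 0 called in either of the other comparisons. Mitochondrial ribosomal proteins, which serve a separate ribosome, were called higher in 57 and lower in 3 of 76 with Smo2 (median 0.38), 5 and 1 in Chd7_mutant cells (0.09) and 0 and 0 with ICRF-193 (0.04). The 5 mitochondrial genes higher in Chd7_mutant cells were 6.58% of those measured, near the 5.07% of all genes. Changes in Chd7_mutant cells were above 0 in 60 of the 76, and in all 19 of the translation factors and other TOP genes. Mrpl13 changed by 1.29 with Smo2 and by 0.41 in Chd7_mutant cells. Growth signalling genes upstream of ribosome production showed few calls outside the Smo2 experiment. In Chd7_mutant cells 2 of 23 were called higher, Myc (0.81) and Eif4ebp1 (0.38), and 0 lower (median 0.04). With ICRF-193 Mycn was called higher (0.71) and Mxd4 lower (-0.36), with a median of 0.01. The shares called higher were 8.7% and 4.35%, against 5.07% and 3.14% of all genes. With Smo2 the list was split, with 7 higher and 9 lower of 23.

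**Figure D5:**
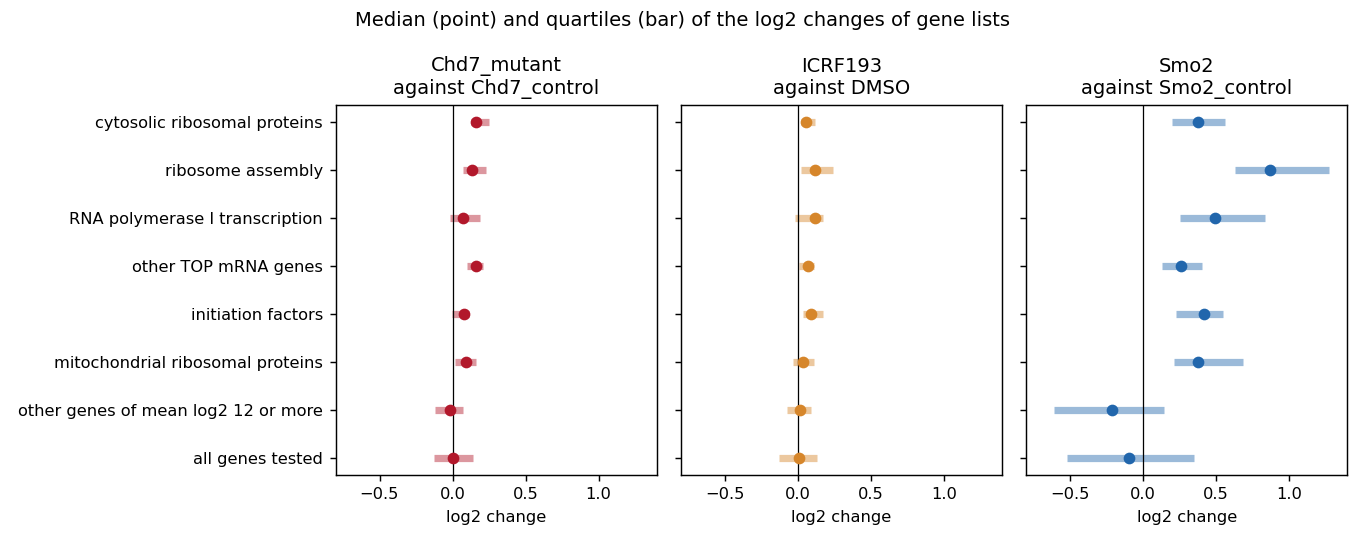
Median (point) and quartiles (bar) of the log2 change (horizontal axis) of the ribosomal protein genes and of other gene lists in the 3 comparisons. With Smo2 the ribosome assembly genes (median 0.87) lie right of the ribosomal protein genes (0.38), and all genes tested lie just left of 0, while in the other 2 comparisons the medians of the 8 lists shown lie between -0.02 and 0.16.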

How the data were processed

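Total RNA of 22 samples was hybridised to Affymetrix 430V2 arrays by the authors. The deposited values are linear signal intensities scaled to a trimmed mean of 500 on each array (2% trimmed, checked on the file), and the sources used here do not name the software that made them. Intensities were floored at 16, log2 transformed and, since array medians differed (6.33 to 6.81, limit 0.2), quantile normalized over 22 arrays. Of 45101 probe sets, 34958 carry 1 symbol, 932 several and 9211 none in the platform annotation. Each gene was read by its brightest probe set, kept at a mean of at least 6.44 (the median of all probe sets), and tested with limma 3.58.1 in R 4.3.3 within each experiment, two-sided, with Benjamini-Hochberg adjustment and a threshold of 0.05. Deviations from group means correlated at 0.39 to 0.42 (Chd7) and 0.28 to 0.41 (ICRF-193) between samples of the same replicate number, and as strongly between other numbers of a set (0.38 to 0.44 and 0.30 to 0.35), which follows the sets rather than the numbers alone. In the Smo2 experiment they were -0.01 to 0.03. The fits reported have no block, and the fit with replicate number as a block is given as an alternative.

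The members and gene lists were chosen with earlier results of these data known. Named members were, per comparison, the 8 called members of largest change in each direction, members fixed by role and the paralogue pairs, with up to 4 called genes of each other list. Rps2, Rpl8, Rps7, Rpl27a, Rpl37a and Rpl41 were named after their values were seen. Alternatives covered scaling, floor, filter, probe set choice, fit, blocks, thresholds and leaving out each array. The number of arrays limits the precision.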

Additional observations from a re-analysis of the deposited data

Results flagged for a closer look

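In a group of 4 arrays a single array was marked where its gap to the nearest other array exceeded Dixon's 95% limit as a share of the group's range. Among 76 groups of named members and member means this happened in 4, and chance alone marks about 1 in 20. The mean over the 46 genes in Chd7_control replicate 2 was 12.88, against 12.78 to 12.79 in the other 3 arrays of that group. The mean in ICRF193 replicate 2 was 12.99, against 13.03 in the other 3. Rps4x read 14.36 in ICRF193 replicate 3, against 14.40 in the others, and Rps19bp1 read 10.05 in DMSO replicate 2, against 9.64 to 9.68.

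By a test of the difference itself (limma over 22 arrays), 4 members differed between the Chd7_mutant and ICRF-193 changes, 23 between Smo2 and Chd7_mutant and 32 between Smo2 and ICRF-193. All of the first and the 6 of smallest p of each of the others are given. In the same directions 5.07%, 20.4% and 22.8% of all genes passed. The Chd7_mutant change exceeded the ICRF-193 change by 0.48 for Rps6, 0.25 for Rps19, 0.24 for Rpsa and 0.24 for Rps3. Under median centring Rps6 kept its call (adjusted p = 0.0194, limma), and Rps19 (0.629), Rpsa (0.477) and Rps3 (0.588) lost theirs. The Smo2 change exceeded the Chd7_mutant change by 0.91 for Rps27l, 0.69 for Rps6, 0.63 for Rpl7l1, 0.43 for Rps19, 0.44 for Rpl22 and 0.34 for Rpl41. The Smo2 change exceeded the ICRF-193 change by 1.17 for Rps6, 1.05 for Rps27l, 0.69 for Rps19, 0.61 for Rpsa, 0.67 for Rpl22 and 0.47 for Rpl41.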

How the results depend on the processing

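The number of ribosomal protein genes called higher in Chd7_mutant cells (10) was 2 with median centring, 28 with centring on other bright genes, 5 with the mean of a gene's probe sets, 5 of 20 with plain probe sets only, 22 in 1 fit over 22 arrays, 26 with a trended and robust fit, 19 with the methods' t-test after Benjamini-Hochberg and 34 at its unadjusted threshold, 3 at an adjusted p under 0.01, 0 at 1.5-fold, 18 with a term for the set, 1 within replicates 1 and 2, and 0 with set means as samples (8 at an unadjusted p under 0.05). The median change (0.16) was 0.22 with the deposited scaling only, 0.26 with centring on other bright genes, 0.20 with plain probe sets and 0.12 within replicates 1 and 2. For ICRF-193, 0 called became 1 with the deposited scaling, with centring on other bright genes, with plain probe sets, with set means as samples and among every probe set, and 6, 5, 3, 9 and 2 with 1 fit over 22 arrays, the trended and robust fit, the methods' t-test after and before adjustment, and a term for the set. Its median change (0.06) was 0.11 with the deposited scaling and 0.16 with centring on other bright genes. With Smo2, 37 called became 15 of 20 with plain probe sets, 11 at 1.5-fold and 69 of 91 among every probe set, and 0 lower became 1 (Rpl37a) at the unadjusted t-test and 1 among every probe set. Its median change (0.38) was 0.58 with median centring, 0.48 with centring on other bright genes, 0.45 with the mean of probe sets and 0.55 with plain probe sets. Median centring moved the median of all genes with Smo2 to 0.048, against -0.095. The causes were not tested. The count over every probe set was added after seeing the data. The share of all genes called higher moved with the settings too, as given above for some of them. Where no such share is given, a count of members cannot be read against all genes.

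Without any 1 array the counts called higher were 6 to 9 (Chd7_mutant), 0 to 0 (ICRF-193) and 33 to 36 (Smo2), the counts called lower stayed 0, and the medians were 0.15 to 0.17, 0.04 to 0.07 and 0.36 to 0.39. In the paired analysis (replicate number as a block) 7, 0 and 33 were called, and among the named members Rps3, Rps27l (Chd7_mutant) and Rpl11 (Smo2) lost their call and no other call changed.

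Signs turned for named members that had not been called, except for Rpsa, which in Chd7_mutant cells was -0.08 with the mean of its probe sets. In Chd7_mutant cells Rps19bp1 was -0.05 with median centring, -0.06 within replicates 1 and 2 and -0.03 without Chd7_control replicate 4 (-0.03 to 0.06 without any 1 array), Rps27 was -0.07 within replicates 1 and 2, and Rpl39 was -0.07 without Chd7_control replicate 1 (-0.07 to 0.69). With ICRF-193, Rps27 was -0.01 with median centring, -0.83 within replicates 1 and 2, and -0.41, -0.01 and -0.06 without ICRF193 replicates 3 and 4 and DMSO replicate 4 (-0.41 to 0.3). Rps4x was 0.00 with median centring, 0.05 with the deposited scaling and 0.10 with centring on other bright genes, which gave Rplp0 0.04. Rpl7 was -0.02 with the mean of its probe sets, Rpl22 -0.09 with plain probe sets and Rpsa -0.02 within replicates 3 and 4. With Smo2, Rps27 was 0.37 without Smo2_control replicate 2 (-0.44 to 0.37).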
